A study of Phaseolus vulgaris with 2 samples.

Results

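CYCB1;4 (Phvul.008G203300) and CDKB2;2 (Phvul.001G000500) are a cyclin and a cyclin-dependent kinase (CDK) of common bean (Phaseolus vulgaris), named in the study after their closest genes in Arabidopsis. They are 2 of the 27197 genes measured, and both were taken from the cell cycle genes that the study placed in a network of genes with more transcript under drought. They were therefore chosen by the same drought and control values that are given here, so the direction of their change is a description and was not tested. The study asked how the transcriptome of a drought-tolerant cultivar, Pinto Saltillo (PS, wild type), changes when water is withheld. Aerial tissue of PS plants was compared between 1 control library, from plants watered throughout, and 1 drought library, from plants whose irrigation was stopped for 2 weeks when they were 45 days old. Tissue of 6 to 9 plants went into each pool, and with 1 library per condition no difference between the libraries has a replicate check. Of the genes named here, the study assayed CSLD5 by semi-quantitative RT-PCR in independent experiments and found it higher in drought. Neither member was assayed.

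In plants, the step from G2 into mitosis is driven by CDKs bound to cyclins. B-type cyclins such as CYCB1;4 accumulate around G2 and mitosis and are destroyed as mitosis ends. B-type CDKs such as CDKB2;2 are a class known from plants and algae, and in Arabidopsis CDKB2 is most active at G2 and mitosis and is needed in the shoot meristem. Transcripts of both genes are therefore widely used as signs of dividing cells, which in a shoot lie mainly in meristems and young organs.

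Expression was given as FPKM, fragments scaled to the length of the transcript and to the mapped reads of the library, so levels of different genes can be set side by side. CYCB1;4 was at 0.166 FPKM in control and 3.40 FPKM under drought, a 20.5-fold higher level. CDKB2;2 was at 0.631 FPKM in control and 5.82 FPKM under drought, a 9.23-fold higher level. Both genes lay below 1 FPKM in the control library and above it in the drought library. In bulk tissue, a change in the number of cells that express a gene and a change in the RNA per cell cannot be told apart.

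CDKB2;2 was the more abundant of the 2 transcripts in both libraries, by an FPKM ratio of 3.80 in control and 1.71 in drought. Ordered from the highest FPKM downwards among all 27197 genes, CDKB2;2 moved from place 19009 in control to place 13385 in drought, and CYCB1;4 from place 21352 to place 15691. Both remained modest transcripts under drought, since the median of the genes with at least 1 FPKM in either library was 11.5 FPKM in the drought library. Of the 9151 genes below 1 FPKM in control, 1615 (17.6%) reached at least 1 FPKM in drought, and 445 genes made the opposite step.

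Because fold changes of such low values are unstable, the log2 ratio was taken after adding 1 to each FPKM, which understates the change of low genes. On this scale the log2 ratio was 1.92 for CYCB1;4 and 2.06 for CDKB2;2, so that CDKB2;2 lay just above 4-fold and CYCB1;4 just below it. Of the 19661 genes that reached 1 FPKM in at least one library, 2.48% were at least 4-fold and 11.7% at least 2-fold higher in drought, and 6.60% were at least 2-fold lower. Among those genes, 453 had a larger ratio than CDKB2;2 and 555 had a larger ratio than CYCB1;4. The order of the 2 members depends on the added constant: with 0.1 in place of 1, the log2 ratio was 3.72 for CYCB1;4 and 3.02 for CDKB2;2.

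**Figure D1:**
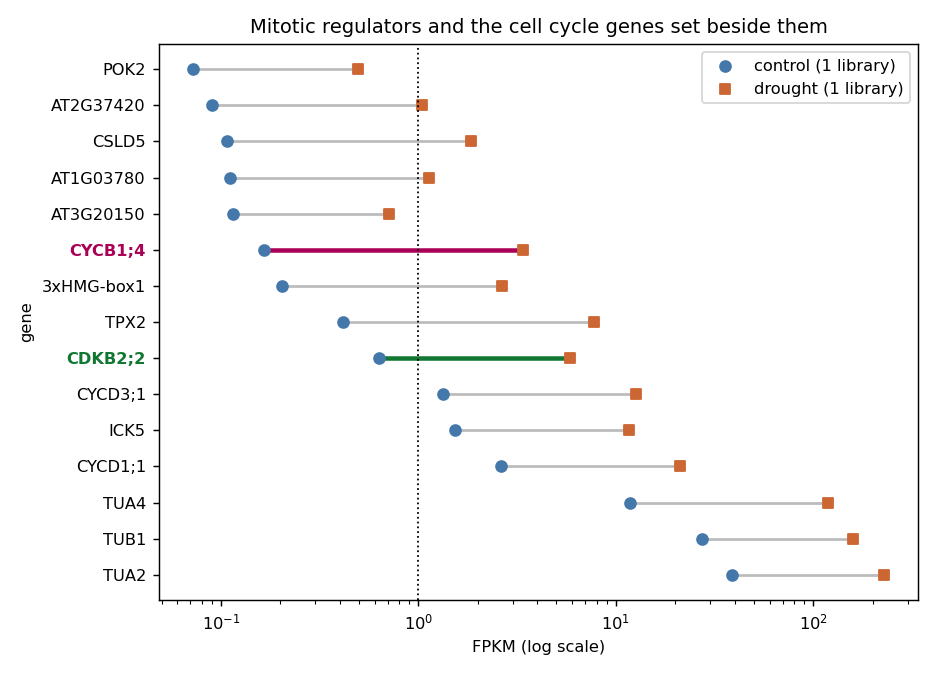
FPKM on a log scale in the control library (circles) and the drought library (squares) for CYCB1;4, CDKB2;2 and 13 further cell cycle, cytoskeleton and cytokinesis genes that the study listed as higher in drought; the dotted line marks 1 FPKM. CYCB1;4 runs from 0.166 to 3.40 FPKM and CDKB2;2 from 0.631 to 5.82 FPKM, and every gene drawn is higher in drought, as its choice requires.

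CYCB1;4 is annotated on chromosome 8 from 51388408 to 51391075, a locus of 2668 bases with introns included. CDKB2;2 is annotated near the start of chromosome 1, from 144308 to 146169, over 1862 bases. Positions are those of the deposited table, whose identifiers end in version 1.0. No other annotated gene overlapped either locus. The genes next to them did not share their pattern. Phvul.008G203200 and Phvul.008G203400, on either side of CYCB1;4, had log2 ratios of -0.49 and -0.09, and Phvul.001G000400 and Phvul.001G000600, on either side of CDKB2;2, had log2 ratios of 0.48 and 0.23.

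The Gene Ontology (GO) terms in the deposited table describe the members differently. CYCB1;4 carried 7 terms, among them regulator activity of cyclin-dependent protein kinases, binding of protein kinases, regulation of cell cycle and stomatal lineage progression. CDKB2;2 carried 22 terms, among them cyclin-dependent protein kinase activity, M phase of mitotic cell cycle, regulation of the G2/M transition, spindle assembly, anaphase, cytokinesis by cell plate formation and DNA endoreduplication. They shared only 2 terms, nucleus and protein binding. Neither member carried the terms cell division or mitosis, and none of the terms of CYCB1;4 names mitosis, so that its place among mitotic regulators rests on its name and not on the deposited annotation.

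The members were therefore placed by value among the genes that do carry cell division or mitosis. These were 144 genes, of which 115 passed 1 FPKM in either library. With both members added to the 115, CDKB2;2 stood in place 2 and CYCB1;4 in place 3 of 117 by log2 ratio. The only gene above them was AHP4 (Phvul.010G145400), a phosphotransfer protein of the cytokinin pathway, at 1.88 FPKM in control and 15.6 FPKM in drought. By level the members stood much lower. Among all 146 genes, CYCB1;4 was in place 133 by control FPKM and in place 94 by drought FPKM, and CDKB2;2 was in place 118 and then 79.

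The annotated cell division and mitosis genes as a group did not have the members' pattern, but most of them began at higher levels. The median control level of the 144 was 6.91 FPKM, and 35 lay below 1 FPKM in control as the members did. Most of these 35 had the higher FPKM in drought, and 2 were at 0 in both libraries. Of all 9151 genes below 1 FPKM in control, 5018 likewise had the higher FPKM in drought, 1627 the lower, and 2506 were at 0 in both libraries. Of the 35, 6 reached 1 FPKM in drought, beside 17.6% of the 9151. Of the 115, 4 (3.48%) were at least 2-fold higher in drought, below the 11.7% of all genes, 1 was at least 4-fold higher and 0 were at least 2-fold lower. These counts depend on the added constant: with 0.1 in place of 1, 8 of the 115 (6.96%) were at least 2-fold higher, 3 at least 4-fold higher and 4 (3.48%) at least 2-fold lower, beside 15.8%, 6.63% and 8.21% of all genes. Their median log2 ratio was -0.17, beside -0.03 for all genes. Without a filter, 61 of the 142 genes above 0 in either library (43.0%) had the higher FPKM in drought, beside 52.0% of all 24691 such genes. The median was -0.19 for the 73 cell division genes and -0.09 for the 44 mitosis genes. After division by the 75th percentile and after scaling to equal sums, the mitosis median was 0.0059 and 0.0044 and the median of all genes 0.07 and 0.06, so that the mitosis genes stayed below it by 0.07 and 0.05, as they did by 0.06 without scaling. For mitosis alone, 0 of 44 genes were 2-fold higher after adding 1 to each FPKM. The largest log2 ratio was 0.94, for Phvul.008G272600, which was 2.04-fold higher in FPKM with no constant added. The summed FPKM of the 59 mitosis genes was 1520 in control and 1521 in drought.

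After AHP4, the largest log2 ratios among cell division and mitosis genes were 1.70 for Phvul.011G080100, 1.37 for Phvul.010G112000, 1.32 for Phvul.010G072700 and 0.94 for Phvul.008G272600. Phvul.010G112000, at 0.419 FPKM in control and 2.66 FPKM in drought, was the one of these that began below 1 FPKM as the members did. The most negative log2 ratios were -0.95 for Phvul.003G070600, -0.88 for Phvul.007G167900, -0.87 for Phvul.004G009000, -0.86 for Phvul.008G096400 and -0.78 for Phvul.006G221100. Phvul.008G096400, at 1.11 FPKM in control and 0.165 FPKM in drought, lay in the same low range as the members but in the opposite direction.

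**Figure D2:**
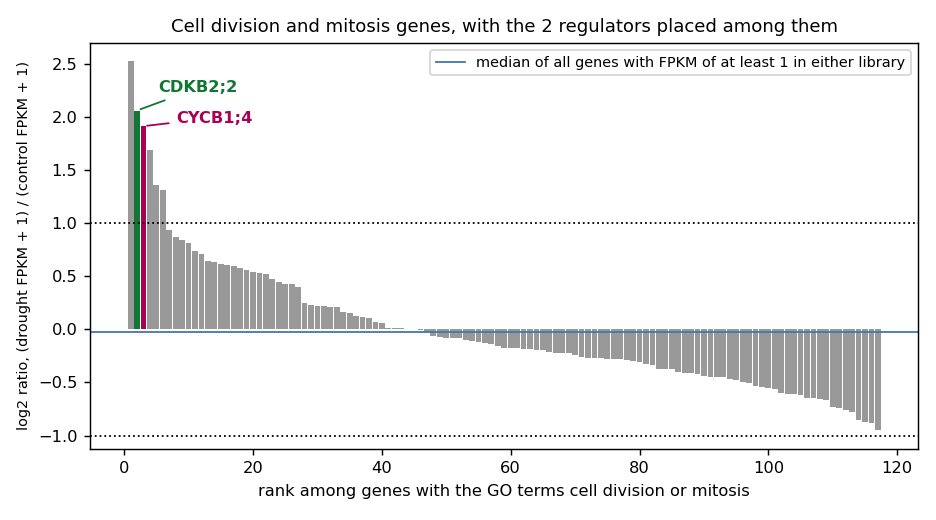
Log2 ratio of drought to control, after adding 1 to each FPKM, for the 115 cell division and mitosis genes with at least 1 FPKM in either library and the 2 regulators placed among them, in order of the ratio. CDKB2;2 (2.06) and CYCB1;4 (1.92) stand in places 2 and 3, most bars lie between the dotted 2-fold lines, and the blue line is the median of all genes (-0.03).

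The closest relatives of CYCB1;4 by annotation had a similar pattern. The term for regulator activity of cyclin-dependent protein kinases, which holds cyclins, was carried by 24 genes, of which 19 had the higher FPKM in drought, 4 the lower, and 1 was at 0 in both libraries. Of the 24, 14 (58.3%) were at least 4-fold higher in FPKM with no constant added, beside 10.4% of all 27197 genes. These were mostly genes with little transcript in control: 16 of the 24 lay below 1 FPKM there, and 15 of those 16 were higher in drought, while 4 of the 8 genes at 1 FPKM or more in control were higher and 4 were lower. For comparison, of all 9151 genes below 1 FPKM in control, 5018 (54.8%) had the higher value in drought and 1627 the lower. The other 2506 were at 0 in both libraries. At least 4-fold higher were 2344 of the 9151 (25.6%), a share that the genes at 0 make smaller. With the filter, 17 of the 24 remained and 9 of these passed only through the drought library. Their median log2 ratio was 1.07, and 1.04 without CYCB1;4, while over the 8 genes with at least 1 FPKM in both libraries it was 0.32.

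CYCB1;4 had the largest fold change in FPKM of the 23 genes of this list that were above 0, and place 4 by log2 ratio. The genes above it were CYCD1;1 and CYCD3;1, by the study's symbols D-type cyclins, which act at the entry into the cell cycle, and 1 gene without a symbol in the study. CYCD1;1 (Phvul.003G054900) was at 2.63 FPKM in control and 21.2 FPKM under drought, and CYCD3;1 (Phvul.007G038400) at 1.34 and 12.6 FPKM. Phvul.001G024900, which also carries the M phase term, was at 0.283 FPKM in control and 4.82 FPKM in drought. CYCD1;1 and CYCD3;1 were thus already above 1 FPKM in well-watered plants, unlike CYCB1;4. Whether genes without a symbol are D-type cyclins is not known here.

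Of the other genes in the list at least 2-fold higher, Phvul.002G074800 was the most abundant, at 9.58 FPKM in control and 34.1 FPKM in drought. The remaining 5 lay close to CYCB1;4. Phvul.001G119700 was at 0.142 and 2.67 FPKM, Phvul.002G115100 at 0.136 and 1.92 FPKM, and Phvul.009G128200 at 0.151 and 1.83 FPKM in control and drought. Phvul.003G234000 was at 0.0726 and 1.26 FPKM, and Phvul.009G115900 at 0.0996 and 1.22 FPKM. All 5 were below CYCB1;4 in both libraries. At the other end, Phvul.007G183500 was lower in drought, at 33.7 and 21.9 FPKM.

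Regulation of CDK activity, regulator activity and regulation of cell cycle were carried together by 16 genes, CYCB1;4 among them. It had the largest log2 ratio of the 16. Of the 15 others, 12 were higher in drought and 3 lower, beside 52.0% higher among all genes above 0, and 8 (53.3%) were at least 4-fold higher in FPKM, beside 10.4% of all genes. Those 8 were among the 11 that lay below 1 FPKM in control. Of all 9151 genes below 1 FPKM in control, 25.6% were at least 4-fold higher. Of the same 9151, 5018 were higher in drought, 1627 lower and 2506 at 0 in both libraries. The 3 that were lower, Phvul.001G025600, Phvul.001G025700 and Phvul.007G183500, were the 3 most abundant of the 16 in control, at 5.39, 4.32 and 33.7 FPKM. Reads of closely related cyclins can be assigned to either gene, and how such reads were handled is not given in the sources used here.

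The relatives of CDKB2;2 had the higher FPKM in drought about as often, but fewer of them by 4-fold. The term cyclin-dependent protein kinase activity was carried by 38 genes, of which 29 had the higher FPKM in drought and 7 the lower. Of those above 0, 80.6% were higher, beside 82.6% for the regulator term and 52.0% for all genes. At least 4-fold higher in FPKM were 18.4% of the 38, beside 58.3% for the regulator term and 10.4% of all genes. Below 1 FPKM in control lay 14 of the 38, beside 16 of the 24 regulators. CDKB2;2 was in place 2 of the 29 genes with at least 1 FPKM in either library, behind Phvul.010G044800, which was at 0.161 FPKM in control and 4.91 FPKM in drought. Of these 29, 7 (24.1%) were at least 2-fold higher, beside 11.7% of all genes, and 5 of the 29 passed the filter only through the drought library. The median log2 ratio was 0.29, and 0.08 over the 24 genes with at least 1 FPKM in both libraries. Of the 24 CDKs at 1 FPKM or more in control, 0 were 4-fold higher in FPKM, beside 2.70% of all such genes. Of the 13 CDKs below 1 FPKM in control other than CDKB2;2, 6 were (46.2%), and 2 were at 0 in both libraries. Of all 9151 genes below 1 FPKM in control, 25.6% were at least 4-fold higher, and 2506 were at 0 in both.

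The other kinases at least 2-fold higher were Phvul.008G049600, at 0.582 and 3.80 FPKM in control and drought, Phvul.008G144200, at 0.409 and 2.64 FPKM, and Phvul.003G240500, at 2.35 and 7.56 FPKM. Phvul.009G067600 was at 1.70 and 5.54 FPKM and Phvul.008G253500 at 1.53 and 4.25 FPKM. CDKB2;2 and Phvul.008G049600 had nearly the same control level but differed in drought, where CDKB2;2 was the higher. The lowest log2 ratio of the list, -0.61, was that of Phvul.002G047100, at 5.06 FPKM in control and 2.96 FPKM in drought. The most abundant gene of the list, Phvul.011G086900, was at 98.6 and 90.9 FPKM and also carries the regulator term.

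**Figure D3:**
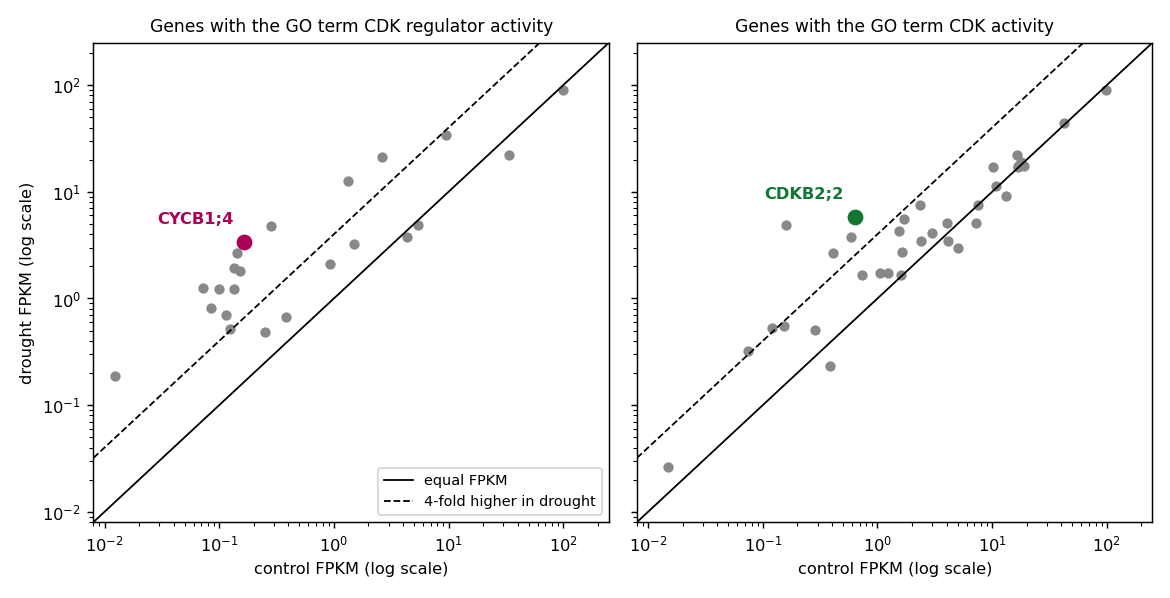
Control FPKM against drought FPKM, both on log scales, for the genes with CDK regulator activity (left, 23 of 24 drawn) and CDK activity (right, 35 of 38 drawn); genes at 0 in a library are not drawn, the solid line is equal FPKM and the dashed line is 4-fold higher in drought. CYCB1;4 lies in a group of regulators below 1 FPKM in control and above the dashed line, while most kinases above 1 FPKM in control lie near the solid line.

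CDK inhibitors, which hold CDK and cyclin complexes inactive, differed in both directions. ICK5 (Phvul.003G244700) was at 1.53 FPKM in control and 11.7 FPKM in drought. Of the other 4 genes with the inhibitor term, Phvul.002G019500 was at 0.315 and 2.26 FPKM and Phvul.003G295400 at 0.206 and 1.08 FPKM. Phvul.008G125600 was lower in drought, at 9.997 and 5.84 FPKM, as was Phvul.007G133100, at 24.2 and 19.1 FPKM. The 2 inhibitors with the highest control level were thus the 2 that were lower.

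The study set both members beside genes of the cell cycle and the cytoskeleton, which were selected on the same drought values, so that their shared direction carries no further evidence. Phvul.002G093500, which has the symbol TPX2 in the study, was at 0.416 FPKM in control and 7.78 FPKM in drought. The study describes its product as a microtubule-associated protein that orients cortical microtubules in interphase. POK2 (Phvul.003G293500), a kinesin that guides the phragmoplast, the structure that builds the new cell wall between daughter cells, was at 0.0723 and 0.493 FPKM and stayed below 1 FPKM in both libraries. The kinesins AT2G37420 (Phvul.007G159100) and AT3G20150 (Phvul.006G052700) were at 0.0896 and 1.05 FPKM and at 0.115 and 0.706 FPKM. CSLD5 (Phvul.001G211000), a cellulose synthase-like enzyme, was at 0.107 and 1.85 FPKM. AT1G03780 (Phvul.011G125500), also of the TPX2 family, was at 0.111 and 1.13 FPKM. The gene 3xHMG-box1 (Phvul.002G296700), whose product binds mitotic chromosomes in Arabidopsis, was at 0.203 and 2.65 FPKM.

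These genes and both members share a control level below 1 FPKM. The tubulins of the same network were abundant in both libraries: TUB1 (Phvul.009G017300) was at 27.2 and 158 FPKM, TUA2 (Phvul.009G114100) at 38.9 and 228 FPKM, and TUA4 (Phvul.007G047300) at 11.8 and 118 FPKM. Their folds of 5.81, 5.85 and 10.02 bracket the fold of CDKB2;2 and lie below that of CYCB1;4.

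Within the lists that hold it, CDKB2;2 was near the top by log2 ratio. It was in place 3 of the 14 M phase genes with at least 1 FPKM in either library, after CYCD3;1 and Phvul.001G024900, and in place 3 of 43 for regulation of the G2/M transition. It was in place 1 of 30 for regulation of mitotic cell cycle, a list whose median log2 ratio was -0.23 and of which 8 of 34 genes above 0 (23.5%) were higher in drought. For spindle assembly it was in place 5 of 27, in a list with a median of 0.56. Of those 27 genes, 12 passed the filter only through the drought library, and over the 14 genes with at least 1 FPKM in both libraries the median was 0.29. Leaving out CDKB2;2 and without a filter, 30 of the 38 other genes of that list were higher in drought, 7 lower and 1 at 0 in both, beside 52.0% higher among all genes above 0. However, 23 of the 38 lay below 1 FPKM in control. Of all 9151 genes below 1 FPKM there, 5018 were higher in drought, 1627 lower and 2506 at 0 in both. CYCB1;4 was in place 1 of 24 for regulation of CDK activity, in place 5 of 106 for regulation of cell cycle and in place 4 of 48 for stomatal lineage progression.

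Other stages of the cell cycle were further from the members. DNA replication, which precedes mitosis, had a median log2 ratio of -0.04 over 102 genes. Of these, 5 (4.90%) were at least 2-fold and 0 at least 4-fold higher, beside 11.7% and 2.48% of all genes. DNA-dependent DNA replication had a median of -0.06 over 87 genes with 3 (3.45%) at least 2-fold higher. The spindle list had a median of -0.01 over 27 genes with 1 (3.70%), and the phragmoplast list -0.01 over 42 genes with 3 (7.14%). In these lists, in the order given, 11, 7, 2 and 6 genes passed the filter only through the drought library. Cytokinesis by cell plate formation, a term of CDKB2;2, had a median of 0.09 over 157 genes, of which 23 (14.6%) were at least 2-fold higher. DNA endoreduplication, the doubling of DNA without division, had 14 of 95 (14.7%). For regulation of the G2/M transition, 5 of 43 genes (11.6%) were at least 2-fold higher, a share near the 11.7% of all genes, and the term G2/M transition itself was carried by only 2 genes, 1 of them above the filter, with a log2 ratio of -0.17. For regulation of cell cycle, a term of CYCB1;4, 19 of 106 (17.9%) were at least 2-fold higher. The counts of these last lists include the member that carries the term and genes that passed only through the drought library, 36 of 157 for cytokinesis, 15 of 95 for DNA endoreduplication, 16 of 43 for regulation of the G2/M transition and 22 of 106 for regulation of cell cycle.

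Microtubule-based movement, which holds kinesins, had a median of 0.37 over 52 genes, with 10 at least 2-fold higher (19.2%) and 1 at least 2-fold lower. Nucleosome assembly, which holds histones, had a median of 0.49 over 65 genes, with 15 at least 2-fold higher (23.1%) and 1 at least 2-fold lower. Over all genes these shares were 11.7% and 6.60%. These medians changed little over genes with at least 1 FPKM in both libraries, to 0.33 and 0.44, in contrast to that of the CDK regulators.

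**Figure D4:**
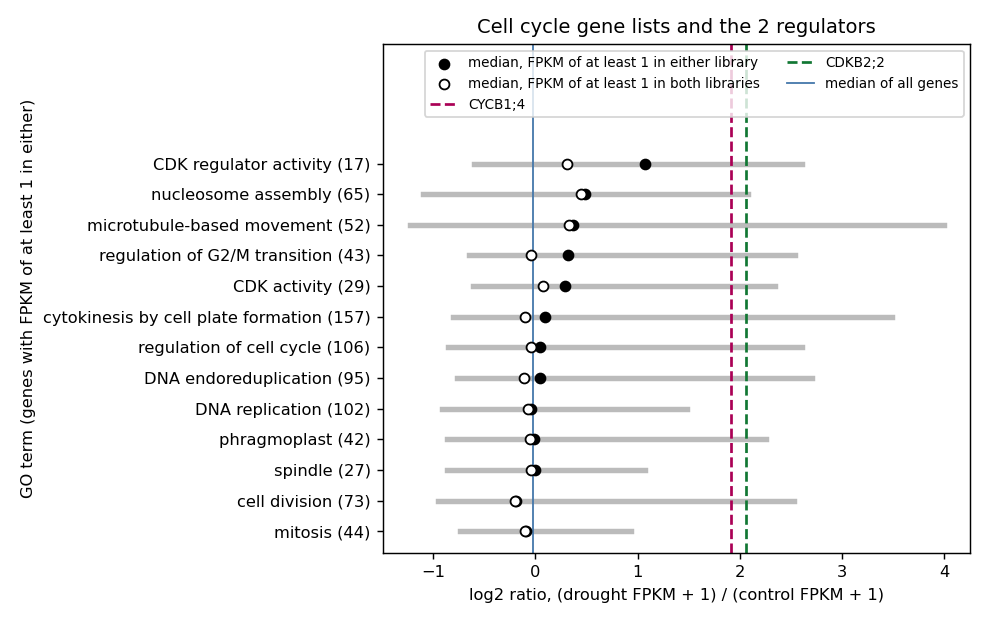
Log2 ratios of drought to control, after adding 1 to each FPKM, for 13 GO lists; grey bars run from the lowest to the highest gene, filled circles are medians over genes with at least 1 FPKM in either library (number in brackets) and open circles medians over genes with at least 1 FPKM in both. Both dashed lines, CYCB1;4 at 1.92 and CDKB2;2 at 2.06, lie to the right of every median, and the median of the CDK regulators shifts from 1.07 to 0.32 when both libraries must reach 1 FPKM.

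By the pair of log2(FPKM + 1) values over the 2 libraries, the genes most like CYCB1;4 were Phvul.001G145100, Phvul.005G037300, Phvul.002G267500, Phvul.003G030200 and Phvul.007G115000, at Euclidean distances of 0.016 to 0.076. Those most like CDKB2;2 were GATL2 (Phvul.001G016900), AT4G34220 (Phvul.007G040400), Phvul.010G138600, Phvul.004G140800 and Phvul.009G149400, at distances of 0.084 to 0.12. None of these 10 genes carried a GO term naming the cell cycle, cyclins, mitosis or cell division. The members were 0.80 apart and each had many genes nearer to it than the other member: CDKB2;2 was in place 726 for CYCB1;4, and CYCB1;4 in place 576 for CDKB2;2. With 2 libraries, likeness says only that both values are close.

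Lists of marker terms for cell types were also read. In bulk tissue they cannot tell a change in makeup from a change in expression per cell. Photosynthesis genes, as found in leaf mesophyll, were expressed in both libraries, with 141 of 149 genes above the filter, 5 at 0 in both libraries and a summed FPKM of 35069 in control and 47616 in drought. Secondary cell wall biogenesis genes, as found in xylem and fibres, differed along with the members: 39 of 55 genes (70.9%) were at least 2-fold higher in drought, beside 11.7% of all genes, their median log2 ratio was 1.35, the summed FPKM of all 78 was 471 in control and 833 in drought, and 2 were at 0 in both libraries. Of those 55 genes, 31 passed only through the drought library, and over the 23 with at least 1 FPKM in both the median was 0.38. The part of these differences in the members' values was not tested. Shoot meristem markers could not be matched by name.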

How the data were processed

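RNA-Seq libraries of aerial tissue from PS plants, 1 control and 1 drought, were compared. Per the labels and methods, poly(A)-enriched RNA was read from one end. Base calling with CASAVA 1.8.2, FastQC, TopHat and Cuffdiff are named in the submitters' processing notes, and the versions of the last 3 are not given in the sources used here. The labels mention 2 libraries per treatment, but the table holds 1 value per gene and condition. The deposited FPKM values were obtained by the authors with Cuffdiff, normalised to transcript length and mapped reads. The authors' log2 fold change, test statistic, p-value and q-value columns hold their own comparison and were not used. GO lists are cut at 1024 characters in 227 genes, neither member among them. The study gives the reads of each library, but no reads per gene were used here, so no counting interval was computed.

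Log2((drought FPKM + 1)/(control FPKM + 1)) was computed with Python 3.11.15 and pandas 2.3.3. Counts and medians used genes that reached 1 FPKM in at least one library. No p-value was computed. The calculation was tested on simulated data. Gene families were taken from whole GO term names, because no product names matched the identifiers. Named genes were both members, cyclins and CDKs at least 2-fold changed, the 5 largest rises and falls among cell division and mitosis genes, the genes set beside the members in the study's network, and the 5 most similar genes to each member. The CYCD, ICK5, AT1G03780 and 3xHMG-box1 genes of the study's functional lists, other CDK inhibitors, neighbours and genes that end a range were named after their values were seen. The terms M phase, spindle assembly, regulation of mitotic cell cycle, regulation of CDK activity, inhibitor activity and stomatal lineage progression were added after the table was opened. The members and all lists were chosen with earlier results of these data known. Symbols are those of the study. Alternatives changed the pseudocount, scaling, centring, filter and shared loci.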

Additional observations from a re-analysis of the deposited data

How the results depend on the processing

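Of 81 values recomputed under alternatives, 63 moved by at most 0.1 on the log2 scale (1.5 times for counts and places), 18 moved by more, and 0 changed direction among differences of at least 2-fold. With a pseudocount of 0.1 or 0.01, the log2 ratio was 3.72 or 4.28 for CYCB1;4 and 3.02 or 3.19 for CDKB2;2, and CYCB1;4 took place 1 among cell division and mitosis genes under both. Of those genes, 8 were then at least 2-fold higher under both, 4 or 5 at least 2-fold lower, and 3 or 4 at least 4-fold higher. Scaling both libraries to a sum of 1000000 gave 1.74 for CYCB1;4 and 1.96 for CDKB2;2. The median of cyclin and CDK genes together was 0.51 and became 0.71 or 0.74 with the smaller pseudocounts. It was 0.093 with at least 1 FPKM in both libraries, which leaves out genes low in control. With at least 5 FPKM in either library, which leaves out genes low in both, it was 0.059. With at least 1 FPKM in both, neither member has a place, and with at least 5 in either CYCB1;4 has none. Without CYCB1;4, CDKB2;2 and the named D-type cyclins, an alternative chosen after seeing the data, that median was 0.41. Counted over genes above 0, also chosen afterwards, 19 CDK regulators were higher in drought, against 13 with the filter. No paired analysis was possible because each condition has 1 library. Both members lay below 1 FPKM in control, and without reads per gene their fold changes have no counting interval.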

Other observations

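Lists chosen after the table was opened describe further stages around the members. The term G2 phase of mitotic cell cycle, carried by neither member, had a median log2 ratio of -0.32 over 106 genes, with 2 at least 2-fold higher and 1 at least 2-fold lower, and 24 of its 112 genes were higher in drought (21.4%, beside 52.0% of all genes above 0). Chromosome segregation had a median of -0.17 over 30 genes, with 2 at least 2-fold higher. Primary shoot apical meristem specification had a median of -0.25 over 43 genes, with 1 at least 2-fold higher, while regulation of meristem structural organization, a term of CDKB2;2, had a median of 0.36 over 17 genes, with CDKB2;2 the highest. The anaphase-promoting complex is the ligase that marks B-type cyclins for destruction. Its term was carried by 8 genes, and the 7 that passed the filter had a median of 0.11. After adding 1 to each FPKM, 0 of the 7 were at least 2-fold changed. The largest log2 ratio was 0.84, for Phvul.007G205800, at 0.254 FPKM in control and 1.25 FPKM in drought. With no constant added that gene was 4.93-fold higher. The anaphase list, which holds CDKB2;2, had a median of 0.29 over 79 genes, of which 18 (22.8%) were at least 2-fold higher and 0 at least 2-fold lower, beside 11.7% and 6.60% of all genes. CDKB2;2 is 1 of the 18, 24 of the 79 genes passed the filter only through the drought library, and over the 54 genes with at least 1 FPKM in both libraries the median was 0.096.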
